A study of Mus musculus with 4 samples.

Results

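Intermediate filament genes of neurons, glia and their progenitors were followed in primary neuron cultures depleted of DcpS, the scavenger decapping enzyme that degrades cap remnants. The 10 genes, Ina, Nefl, Nefm, Nefh, Prph, Vim, Nes, Gfap, Synm and Des, were taken by symbol from the 32681 genes of the deposited table. The comparison is between 2 control libraries and 2 DcpS-depleted libraries, made from neuron cultures of embryonic day 13 neocortex of wild-type CD-1 mice, an outbred strain. The control cultures were transfected with Control shRNA and the others with DcpS shRNA, which the sample titles call shDcPS-2. All cultures were grown in Neurobasal medium with B27 supplement. The share of cells that took up a hairpin, the time between transfection and harvest and the number of litters are not stated in the labels. The p-values below therefore measure the spread between these 4 libraries, which may be technical.

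Intermediate filaments are rope-like cytoskeletal polymers built from coiled-coil proteins, and the subunits a cell makes change as it matures. Neural progenitors and radial glia assemble filaments of vimentin and nestin. Young neurons replace them with α-internexin and the light and medium neurofilament chains, and the heavy chain joins later, as axons mature and thicken. Astrocytes add glial fibrillary acidic protein to vimentin.

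The recovered reads ranged from 17754768 to 21793685 per library. Dcps, the targeted gene, had normalised read counts (reads divided by a scaling factor per library) of 499.8 and 506.6 in the controls and 114.5 and 119.6 after DcpS shRNA. Its mean after DcpS shRNA was 23.3% ± 0.716 of the control mean (SD, n = 2), so both libraries match their label. Counting noise did not account for the differences between libraries of a group: chi-square divided by its degrees of freedom was 2.14 for the controls and 3.98 for the DcpS shRNA libraries. The pan-neuronal markers were abundant, with a summed normalised read count of 119421 to 123154 over 12 genes, and the radial glia markers were at 35550 to 37640 over 13, so the cultures held RNA of both neurons and progenitors. In such bulk RNA, fewer cells of a type and less RNA per cell cannot be told apart.

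By p-value the leading change among the filament genes was a fall of Ina, which encodes α-internexin, the neuronal subunit that precedes the neurofilament chains in development. The fall of Gfap was larger in size, at a log2 fold change of −0.91 against −0.79 for Ina, but its call ended when control 2 or either DcpS shRNA library was left out. Nes rose, while the neurofilament genes Nefl, Nefm and Nefh, the peripheral neuron gene Prph, Vim and Synm did not pass the test. Of the 9 genes that passed the filter on low values, 2 were called lower and 1 higher by limma at a Benjamini-Hochberg adjusted p under 0.05. Over all 18110 genes tested, 5.79% were called, 3.65% lower and 2.14% higher. The median log2 fold change was 0.02 over the 9 genes and 0.00074 over all genes tested. The libraries of the 2 groups did not overlap for 6 of the 9 genes, 4 higher and 2 lower, which was so for 48.4% of all genes tested (24.4% higher, 24.0% lower).

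**Figure D1:**
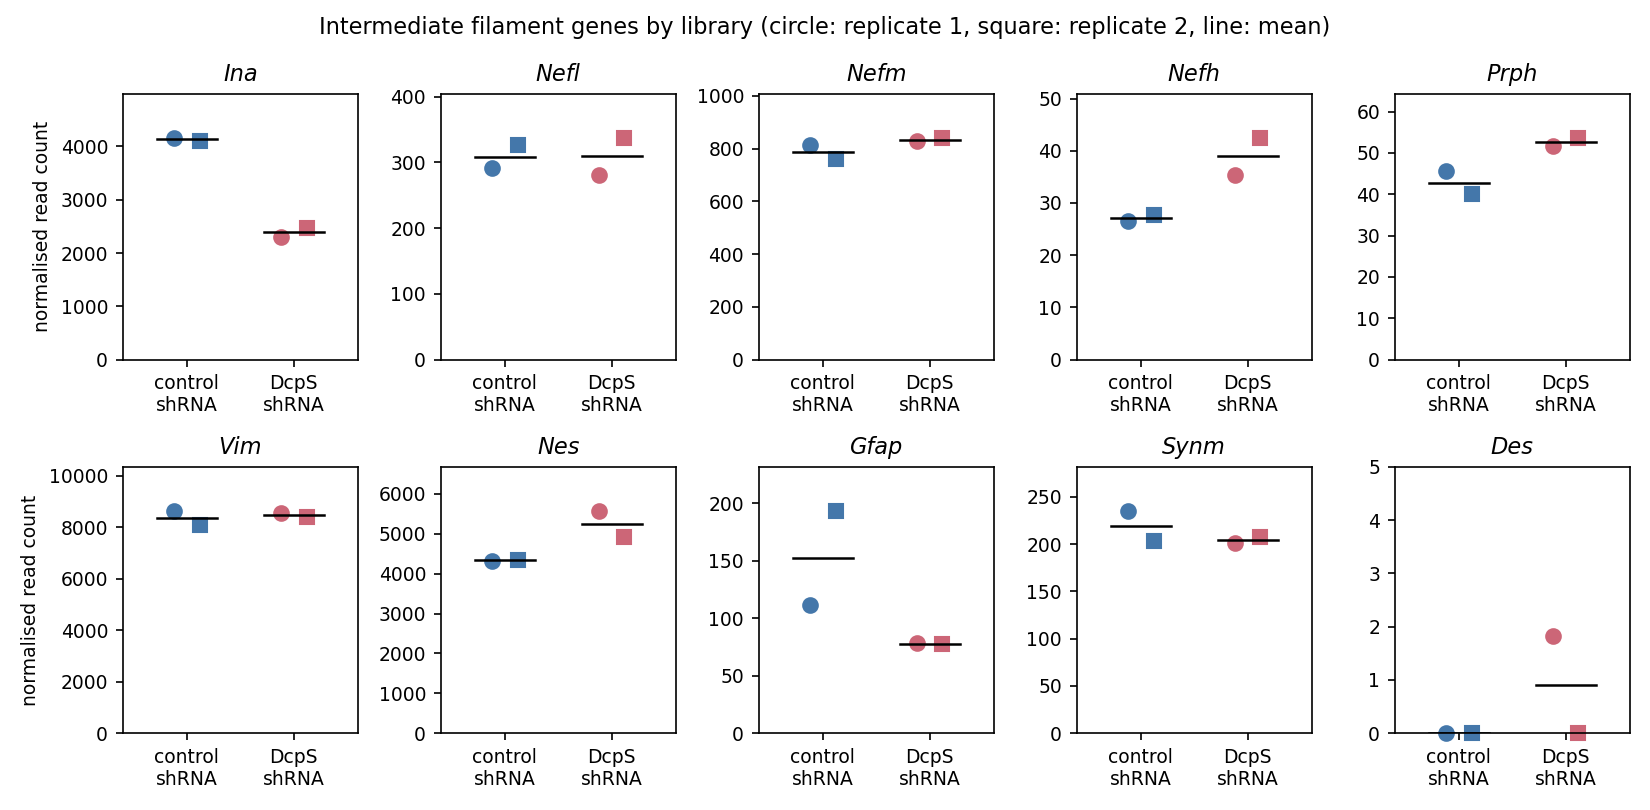
Normalised read count of each intermediate filament gene in each library, with control shRNA in blue and DcpS shRNA in red, replicate 1 as a circle, replicate 2 as a square and the group mean as a line. Each panel has its own linear axis from 0. Ina stood at 4162 and 4111 in the controls and at 2297 and 2479 after DcpS shRNA, while Vim ran from 8083 to 8624 across both groups.

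Because Ina had the smallest p-value among the filament genes, its transcript is shown here beside that of Dcps where the 2 share a short stretch. The 7-base word CACGTGC, in capitals below, occurs in the 3′ UTR of Ina and in the Dcps transcript. Each line gives 29 bases of the transcript strand, 5′ to 3′, from the GENCODE M21 transcripts (GRCm38).
Dcps, chr9:35124746-35124774, minus strand: actatcacctgCACGTGCatttcacagct
Ina, chr19:47025196-47025224, plus strand: tcacattctagCACGTGCttcaatagctc
In Ina the word covers bases 3120 to 3126 of the 3240-base transcript, 114 bases before its end. In Dcps the site is coding in 1 annotated transcript and lies in the 3′ UTR of another. The run of letters shared around the word was GCACGTGC, 8 bases long, and 11 of the 29 positions were identical.

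Ina (chromosome 19, 47014698 to 47025327, plus strand) had 4162 and 4111 normalised reads in control 1 and 2, and 2297 and 2479 in DcpS shRNA 1 and 2. The 2 DcpS shRNA libraries lay far below both controls, and the gap between groups was many times the gap within them. On average Ina fell from 4137 ± 35.6 to 2388 ± 129 (SD, n = 2 per group), to 57.7% ± 3.11 of the control mean. The log2 fold change was −0.79 (SE 0.05, 95% interval −0.91 to −0.68; limma, Benjamini-Hochberg adjusted p 6.34e-07). By p-value Ina ranked 3 among the 18110 genes tested, and 116 of the 661 genes called lower, Ina included, fell at least as far. The call held in each of 13 alternative analyses, with log2 fold changes from −0.85 to −0.74 and adjusted p-values from 1.20e-26 to 1.15e-06. These included edgeR, DESeq2 and the omission of each library in turn.

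The first 456 bases of Ina overlap Nt5c2, a cytosolic nucleotidase gene on the opposite strand that ends, by coordinate, at 47015153. The labels do not state whether counting used strand, so reads of that stretch could belong to either gene. Nt5c2 had 1374 and 1414 normalised reads in the controls and 1490 and 1477 after DcpS shRNA. It was thus slightly above its controls, with a log2 fold change of 0.09 (SE 0.06; limma, Benjamini-Hochberg adjusted p 0.429).

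The word CACGTGC and its neighbour ACGTGCA, which overlaps it by 6 bases in Dcps, were taken from an earlier account of these same data, so their frequency among lower genes is a description only. On the transcript strand, CACGTGC occurred in an annotated 3′ UTR of 7.02% of 13724 tested genes scanned, of 23.5% of 646 genes called lower and of 4.89% of 368 called higher. Of all 3073 scanned genes whose longest 3′ UTR was within 20% of the 1677 bases of Ina, 7.09% held it. Genes with either word numbered 1301, and 17.2% of them were called lower, against 3.40% of the 12423 genes without. Their median log2 fold change was −0.09 against 0.01. Of the genes with a word, 48 had a log2 fold change at or below that of Ina, with Ina and Dcps included. Among all 18110 genes tested, whether or not their 3′ UTR was scanned, 274 did. Of the 10 filament genes, Ina was the only member with either word in its 3′ UTR, and 9 had none there. Outside the 3′ UTR, Synm had ACGTGCA in its coding sequence (log2 fold change −0.10, not called). Nt5c2, which is not a member, had ACGTGCA in a 3′ UTR (0.09, not called). Of the marker and partner genes in the lists described below, 13 tested genes had a word in a 3′ UTR. Of these, 5 were called lower (Acta2, Acsbg1, Gja1, Dst and Syt1), 0 higher and 8 neither (Iffo1, Mapk10, Rock2, Camk2b, Myo5a, Map1b, Elavl3 and Csf1r, with log2 fold changes from −0.25 to 0.16). The hairpin sequence of shDcPS-2 is not given in the sources used here, so it was not compared with the sites in Ina and Dcps, and the part of the word in the fall of Ina was not tested.

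**Figure D2:**
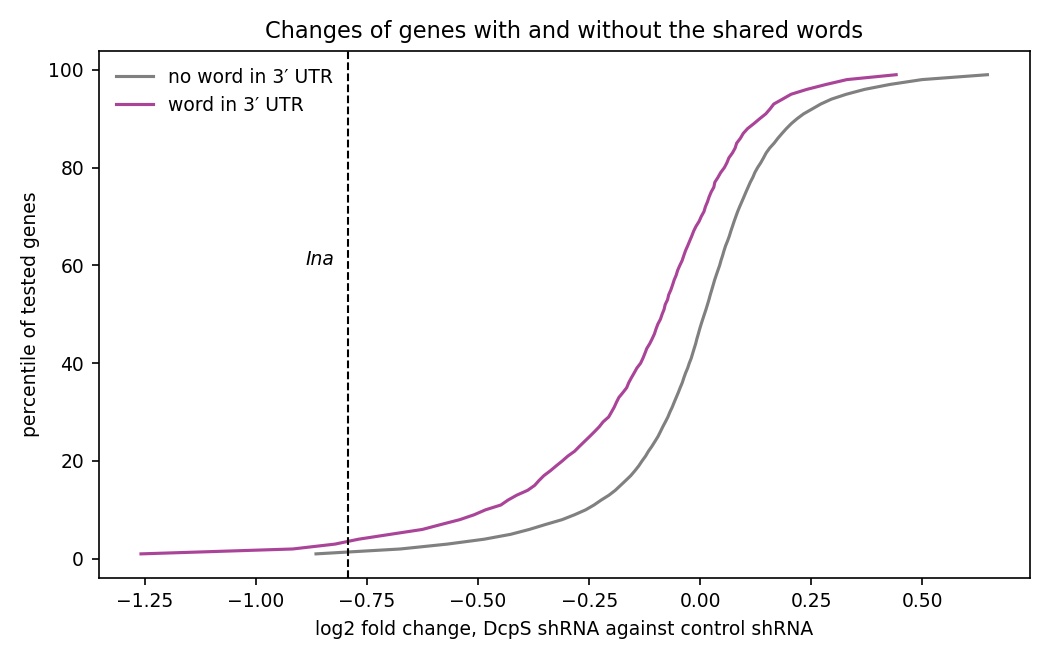
Percentiles (1 to 99) of the log2 fold change of DcpS shRNA against control shRNA for 1301 tested genes with CACGTGC or ACGTGCA in a 3′ UTR (purple) and 12423 without (grey). The purple curve lies to the left of the grey one, and the dashed line marks Ina at −0.79.

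The genes of the neurofilament chains, Nefl, Nefm and Nefh, did not pass the test. Nefl encodes the light chain, the core of the neurofilament, and stood at 291.7 and 326.1 normalised reads in the controls and 281.7 and 337.5 after DcpS shRNA. The groups overlapped, and the mean was 309 ± 24.3 against 310 ± 39.5 (SD, n = 2 per group). The log2 fold change was −0.00056 with a 95% interval from −0.23 to 0.23 (limma, Benjamini-Hochberg adjusted p 0.998). This interval does not reach the change estimated for Ina.

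Nefm, the medium chain, had 813 and 762 normalised reads in the controls and 828 and 840 after DcpS shRNA. Both DcpS shRNA libraries were above both controls by little, with a log2 fold change of 0.08 (95% interval −0.06 to 0.22; limma, Benjamini-Hochberg adjusted p 0.563). Nefl and Nefm lie on opposite strands of chromosome 14 (Nefl 68083863 to 68089095, plus strand; Nefm 68082590 to 68124846, minus strand). Their annotated exons share 1108 bases, 32.8% of the exon length of Nefl, so their reads are separable there only where strand was used.

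Nefh encodes the heavy chain, the last of the neurofilament chains to appear in development, and was the lowest neurofilament gene. It had 28 and 27 reads in the controls and 39 and 38 after DcpS shRNA, which are 26.6, 27.7, 35.4 and 42.5 normalised reads. Both DcpS shRNA libraries were higher, yet the exact Poisson 95% interval was 18.6 to 40.5 reads in control 1 and 27.7 to 53.3 reads in DcpS shRNA 1, so the counting intervals overlapped. The log2 fold change of 0.50 (SE 0.25) had a 95% interval from −0.03 to 1.03 and did not pass (limma, Benjamini-Hochberg adjusted p 0.305). These read intervals cover counting error only.

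Prph encodes peripherin, a neuronal filament protein best known from peripheral and motor neurons. It had 45.6 and 40.0 normalised reads in the controls and 51.8 and 53.6 after DcpS shRNA. The higher DcpS shRNA values rest on 39 to 57 reads per library, and the log2 fold change of 0.30 (95% interval −0.15 to 0.75) did not pass (limma, Benjamini-Hochberg adjusted p 0.502). Markers of peripheral sensory and motor neurons were low, with a summed normalised read count of 45.6 to 66.3 over 7 genes. Most of it came from Avil, which encodes the actin-binding protein advillin of sensory neurons (20.9 to 29.7 across the 4 libraries), and the sensory neuron factor Pou4f1 (15.6 to 29.1). Both passed the filter, and neither was called by limma, edgeR or DESeq2 or had an unadjusted limma p under 0.05. Of the others, Chat, the acetylcholine synthase, and the motor neuron factor Mnx1 were at 0 in 3 libraries each. A count of 0 has an exact Poisson 95% interval up to 3.69 reads.

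**Figure D3:**
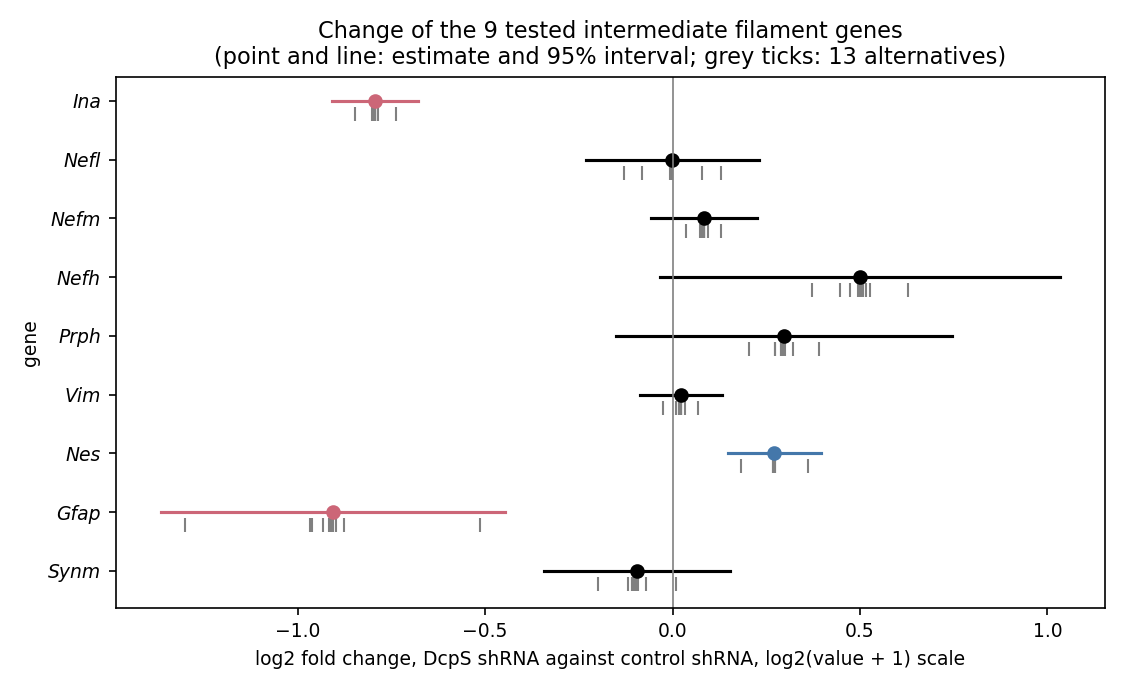
Log2 fold change of DcpS shRNA against control shRNA for the 9 tested intermediate filament genes, with the limma estimate as a point, its 95% interval as a line, and 13 alternative analyses as grey ticks below. Ina and Gfap (red, called lower) and Nes (blue, called higher) lie clear of 0, and the intervals of the 6 genes in black include 0. The ticks of Gfap spread from −1.30 to −0.51.

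Among the filament genes of progenitors and glia, Nes and Gfap moved in opposite directions and Vim stayed level within its interval. Nes (chromosome 3, 87971078 to 87980451, plus strand) encodes nestin, the filament protein used as a marker of neural progenitors. It had 4330 and 4333 normalised reads in the controls and 5562 and 4915 after DcpS shRNA. Both DcpS shRNA libraries were higher, DcpS shRNA 1 by more than DcpS shRNA 2, and the mean rose from 4331 ± 2.08 to 5238 ± 458 (SD, n = 2 per group). The log2 fold change was 0.27 (SE 0.06, 95% interval 0.15 to 0.40; limma, Benjamini-Hochberg adjusted p 0.0108). Omitting control 1 ended the call of Nes (limma, Benjamini-Hochberg adjusted p 0.0662), as did omitting control 2 (0.0688), with the same fold change to 2 decimals, and the call held in the other 11 alternatives.

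Radial glia markers other than Nes were called in both directions. Of 12 tested radial glia markers, 1 was called higher, 1 lower and 10 neither, with a median log2 fold change of −0.01. The called share was 16.7%, against 5.79% over all genes tested. Gli3, a transcription factor of the Hedgehog pathway, rose (0.39, SE 0.07), and Hopx, a marker of outer radial glia, fell (−0.50, SE 0.10). DESeq2 did not call Hopx (Benjamini-Hochberg adjusted p 0.0783). The summed normalised read count of the list was 37640 and 36788 in the controls and 36988.5 and 35550 after DcpS shRNA, so the groups overlapped. The progenitor factors Pax6 and Sox2 stood at 2581 to 2913 and 1436 to 1731 across the 4 libraries.

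Vim encodes vimentin, made by progenitors, astrocytes, fibroblasts and vascular cells, and was the most abundant of the 10 genes. It had 8624 and 8083 normalised reads in the controls and 8544 and 8405 after DcpS shRNA, so both DcpS shRNA libraries lay between the controls. The log2 fold change was 0.02 with a 95% interval from −0.09 to 0.13 (limma, Benjamini-Hochberg adjusted p 0.883).

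Gfap (chromosome 11, 102887336 to 102900912, minus strand) encodes the main filament protein of astrocytes. It had 111 normalised reads in control 1, 193 in control 2, and 78.1 and 77.1 in DcpS shRNA 1 and 2. Both DcpS shRNA libraries were below both controls, but the controls themselves differed by more than counting error, with Poisson 95% intervals of 91.9 to 133 and 166 to 222. On average Gfap fell from 152 ± 57.7 to 77.6 ± 0.728 (SD, n = 2 per group), a log2 fold change of −0.91 (SE 0.21; limma, Benjamini-Hochberg adjusted p 0.0241). Without control 2 the log2 fold change was −0.51 and the call ended (limma, Benjamini-Hochberg adjusted p 0.250), and it also ended without DcpS shRNA 1 (0.0957) or DcpS shRNA 2 (0.113). The other 10 alternatives kept the call.

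Astrocyte markers other than Gfap were called lower more than higher. Of 11 tested markers, 6 were called lower, 1 higher and 4 neither, with a median log2 fold change of −0.43. The called share was 63.6%, against 5.79% over all genes tested. The largest falls were in the water channel Aqp4 (−1.13, SE 0.25), the fatty acid ligase Acsbg1 (−0.77, SE 0.10) and the gap-junction gene Gja1 (−0.67, SE 0.08). The glycolytic enzyme Aldoc rose (0.21, SE 0.05). The controls, which differed for Gfap, were close for Acsbg1 (357 and 371 normalised reads) and Gja1 (688 and 706). Acsbg1 and Gja1 both have one of the words above in a 3′ UTR. Aqp4 and the other tested astrocyte markers, most of those called lower included, have none. The transcription factor Sox9 (0.06, SE 0.07) and the receptor Fgfr3 (0.06, SE 0.06) did not pass. Calls ended for Aqp4 on omitting control 2 (limma, Benjamini-Hochberg adjusted p 0.0698), on omitting DcpS shRNA 1 (0.0501) and in DESeq2 (0.110), and for Aldoc without control 1 (0.161) or control 2 (0.231). The summed normalised read count of the 13 listed markers was 12679 and 12511 in the controls and 11838 and 11816 after DcpS shRNA, and none was at 0 in all libraries. The part of astrocyte number in the fall of Gfap was not tested.

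Synm and Des are filament genes of muscle, and Synm is also found in astrocytes and vascular cells. Synm encodes synemin, which links filaments to membranes, and had 235 and 203 normalised reads in the controls and 201 and 208 after DcpS shRNA. The groups overlapped, and the log2 fold change was −0.10 (95% interval −0.34 to 0.15; limma, Benjamini-Hochberg adjusted p 0.733). Des encodes desmin, the filament protein of muscle cells and pericytes, and was not tested. It had 0 reads in both controls and in DcpS shRNA 2 and 2 reads in DcpS shRNA 1. For a count of 0 the exact Poisson 95% interval reaches 3.69 reads. The floor set here was 3 reads, or 0.144 to 0.169 CPM (reads scaled to a common library total) in those libraries, so no fold is given.

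Markers of contractile and connective tissue cells were called lower more than higher. Of 7 tested smooth muscle, pericyte and other contractile markers, 2 were called lower and 0 higher, with a median log2 fold change of −0.72. The called share was 28.6%, against 5.79% over all genes tested. The 2 were smooth-muscle actin Acta2 (−1.93, SE 0.23), which has a word in its 3′ UTR, and the pericyte receptor Pdgfrb (−0.72, SE 0.09), which has none. By log2 fold change 6 of the 7 were lower and 1, Tagln, higher (0.51, SE 0.33, not called). Myh11 was near level (−0.02, SE 0.47, not called). The muscle factors Myod1 and Myog had at most 2.73 normalised reads in any library. The summed level of the list was 772 and 777 in the controls and 490 and 459 after DcpS shRNA. Of 10 meningeal fibroblast markers, 9 (90.0%) were called lower and 0 higher, with a median of −0.70. Of these 10 markers, 0 have a word in a 3′ UTR. Their summed level was 17186 and 18778 in the controls against 11017 and 10504.5 after DcpS shRNA. The largest falls there were in the fibrillin Fbn1 (−1.08, SE 0.18), periostin, Postn (−1.07, SE 0.08), and the collagen Col1a1 (−0.87, SE 0.06). The call of Fbn1 ended without a filter (limma, Benjamini-Hochberg adjusted p 0.0947) and with the replicate block (0.299). Vim, which such cells also express, had its 95% interval above −0.09, and the part of these cells in its level was not tested.

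Endothelial and microglial markers were lower still in level. Of 4 tested endothelial markers, 1 (25.0%) was called lower, the VEGF receptor Kdr (−0.74, SE 0.18), against 5.79% called over all genes tested. The list median was −0.53 and the summed level 99.0 to 169 across libraries. By log2 fold change 3 of the 4 were lower and 1, Pecam1, higher (0.93, SE 0.44, not called). Kdr itself had 55.9 to 109 normalised reads across libraries, so the summed level rests largely on this gene. Kdr lost its call when control 2 was omitted (limma, Benjamini-Hochberg adjusted p 0.277) and in DESeq2 (0.217). Of 7 tested microglia markers, 0 were called by limma, edgeR or DESeq2 and 1 had an unadjusted limma p under 0.05, with a median of −0.12 and a summed level of 193 to 207.

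Levels of different genes were compared per kilobase of annotated exon. These lengths include bases shared with genes on the opposite strand, as in Ina, Nefl and Nefm. How reads of those bases were assigned is not stated, which limits the levels, shares and ratios of these genes. In the controls Vim led with 1761 ± 80.6 normalised reads per kilobase (SD, n = 2), followed by Ina at 1284.5 and 1269 in the 2 libraries and Nes at 675 ± 0.325. Nefm followed at 136 ± 6.28 and Nefl at 91.4 ± 7.20. Gfap at 26.4 and 45.7 and Synm at 29.6 and 25.6 overlapped. With the length of the longest transcript in place of all exons, Gfap, at 42.0 and 72.8, lay above Synm, at 30.0 and 26.0, so their order depends on the length used. That length also raised Vim to 2947 and 2763 and Nefm to 221 and 207, with the other places in the order of the controls unchanged. Prph stood at 21.4 ± 1.985, Nefh at 6.80 ± 0.192 and Des at 0. The filament RNA of the control cultures was thus mostly of vimentin, α-internexin and nestin. With DcpS shRNA, Nes at 816.5 ± 71.4 stood above Ina at 737 ± 39.7 per kilobase, although in DcpS shRNA 2 they were nearly level, at 766.0 and 765.0.

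Within the neuronal set of Ina, Nefl, Nefm and Nefh, Ina made up a smaller share after DcpS shRNA. The share of Ina in their summed length-scaled level was 84.6% and 84.4% in the controls and 75.1% and 74.9% after DcpS shRNA. The 2 libraries of each group were nearly equal, and the difference of −9.48 percentage points was far above their spread (SD 0.175 and 0.0958, n = 2 per group). The share of Nefm went from 9.01% ± 0.357 to 14.7% ± 0.652 and that of Nefl from 6.05% ± 0.516 to 9.30% ± 0.676 (SD, n = 2 per group). Nefh made up 0.450% ± 0.0157 and 0.991% ± 0.0721. The shares are parts of a single sum that is mostly Ina. A fall of Ina alone lowers its share and raises the others, so the shares are not a result separate from that fall. The summed level of the 4 genes went from 1511 ± 9.89 to 982.5 ± 54.1 normalised reads per kilobase, 65.0% of control, and Ina was the only called gene among them. With the longest transcript as length the share of Nefm went from 13.5% ± 0.507 to 21.3% ± 0.872 (SD, n = 2 per group). For each of these shares and the sum, with either length, the exact two-sided permutation p was 0.333, the smallest that 2 libraries against 2 can give.

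The ratio of Ina to Nefl per kilobase was 14.9 and 13.2 in the controls and 8.51 and 7.66 after DcpS shRNA. The ratio of Nefm to Nefl overlapped between the groups, at 1.63 and 1.37 in the controls and 1.72 and 1.46 after DcpS shRNA. In both groups replicate 1 had the higher Nefm to Nefl ratio. The progenitor and glial set of Vim, Nes and Gfap had a summed level of 2472 ± 66.6 in the controls and 2622 ± 92.3 after DcpS shRNA. The share of Nes in it went from 27.3% ± 0.749 to 31.1% ± 1.63, that of Vim from 71.2% ± 1.34 to 68.2% ± 1.61, and that of Gfap from 1.47% ± 0.593 to 0.702% ± 0.0181 (SD, n = 2 per group; exact two-sided permutation p 0.333 for each).

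**Figure D4:**
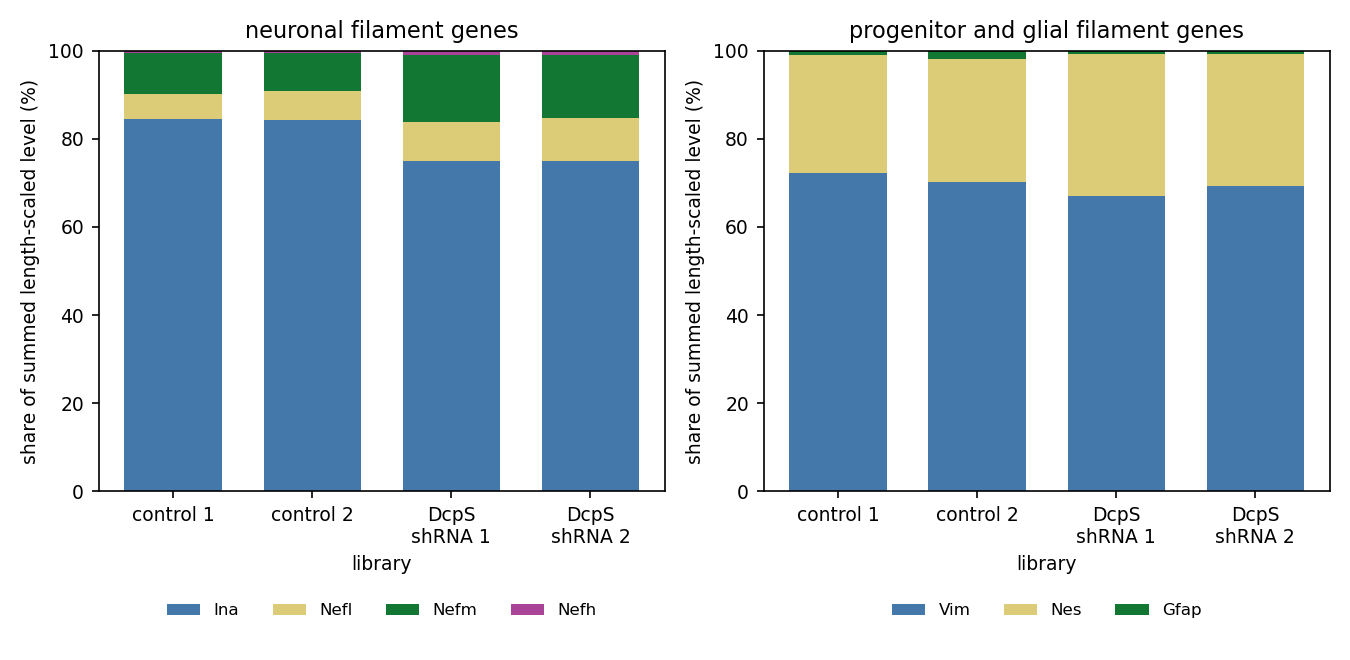
Share of each gene in the summed length-scaled level of the neuronal filament genes (left) and of the progenitor and glial filament genes (right), in percent, for each of the 4 libraries. On the left Ina takes 84.6% and 84.4% in the controls and 75.1% and 74.9% after DcpS shRNA, and on the right Vim takes 67.1% to 72.2% in all libraries.

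Pan-neuronal markers were called in both directions and by smaller amounts than Ina. Of 12 tested pan-neuronal markers, 2 were called higher, 2 lower and 8 neither, with a median log2 fold change of −0.02. The called share was 33.3%, against 5.79% over all genes tested. Syn1, a synaptic vesicle phosphoprotein (0.27, SE 0.06), and the splicing factor Rbfox3, known as NeuN (0.24, SE 0.06), rose. Snap25, a synaptic SNARE (−0.26, SE 0.06), and the vesicle calcium sensor Syt1 (−0.22, SE 0.06) fell. Calls ended for Snap25 (limma, Benjamini-Hochberg adjusted p 0.102) and Syt1 (0.0563) without control 1, and for Syt1 (0.318), Syn1 (0.152) and Rbfox3 (0.310) without control 2. That of Rbfox3 also ended without DcpS shRNA 2 (0.0586), and DESeq2 called neither Rbfox3 nor Syt1. The summed level of the list was 123154 and 121589 in the controls and 119421 and 119766 after DcpS shRNA, while the mean of Ina fell to 57.7% of control.

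Of 11 tested keratins, lamins and related filament genes, 1 (9.09%) was called lower and 10 neither, against 5.79% called over all genes tested, with a median log2 fold change of −0.06. Krt8, a keratin of simple epithelia and of some vascular and mesothelial cells, fell from 115 and 119 normalised reads to 67.2 and 83.8 (−0.63, SE 0.17; limma, Benjamini-Hochberg adjusted p 0.0335). That call ended without control 1 (0.0882), control 2 (0.142) or DcpS shRNA 1 (0.135) and with DESeq2 (0.271). Lmnb1, the nuclear lamin that was the most abundant of the list, had 7029 to 7410 normalised reads across the 4 libraries.

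Linker proteins tie intermediate filaments to actin, microtubules and junctions. Of 13 tested linker genes, 1 (7.69%) was called lower and 12 neither, against 5.79% called over all genes tested. The median was −0.11. It was Dst, which encodes dystonin, a plakin that binds neuronal filaments. Dst had 6340 and 6228 normalised reads in the controls and 4910 and 4098 after DcpS shRNA (−0.49, SE 0.07; limma, Benjamini-Hochberg adjusted p 0.000983). The call held in the 13 alternatives.

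Of 14 genes of filament chaperones and turnover, 0 were called by limma, edgeR or DESeq2 and 3 had an unadjusted limma p under 0.05, with a median of 0.0091. Of 22 filament kinases and phosphatases, 2 (9.09%) were called higher, against 5.79% called over all genes tested, with a median of 0.06. They were Cdk5r2, an activator of the neurofilament kinase Cdk5 (0.49, SE 0.12), and the phosphatase catalytic subunit Ppp2ca (0.19, SE 0.05). Of 20 transport and microtubule partners, 1 was called higher, 1 lower and 18 neither, against 5.79% called over all genes tested. The kinesin light chain Klc1 was higher (0.18, SE 0.05) and the dynein intermediate chain Dync1i1 lower (−0.31, SE 0.07), with a list median of −0.02. DESeq2 did not call Cdk5r2, Ppp2ca or Klc1. Without control 2 the calls of Cdk5r2 (limma, Benjamini-Hochberg adjusted p 0.211), Ppp2ca (0.186), Klc1 (0.428) and Dync1i1 (0.175) ended. Those of Ppp2ca (0.402) and Klc1 (0.241) also ended without control 1, that of Cdk5r2 without DcpS shRNA 1 (0.0868) and that of Ppp2ca without DcpS shRNA 2 (0.0537). With edgeR the call of Ppp2ca (0.0548) and that of Klc1 (0.0581) ended as well.

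**Figure D5:**
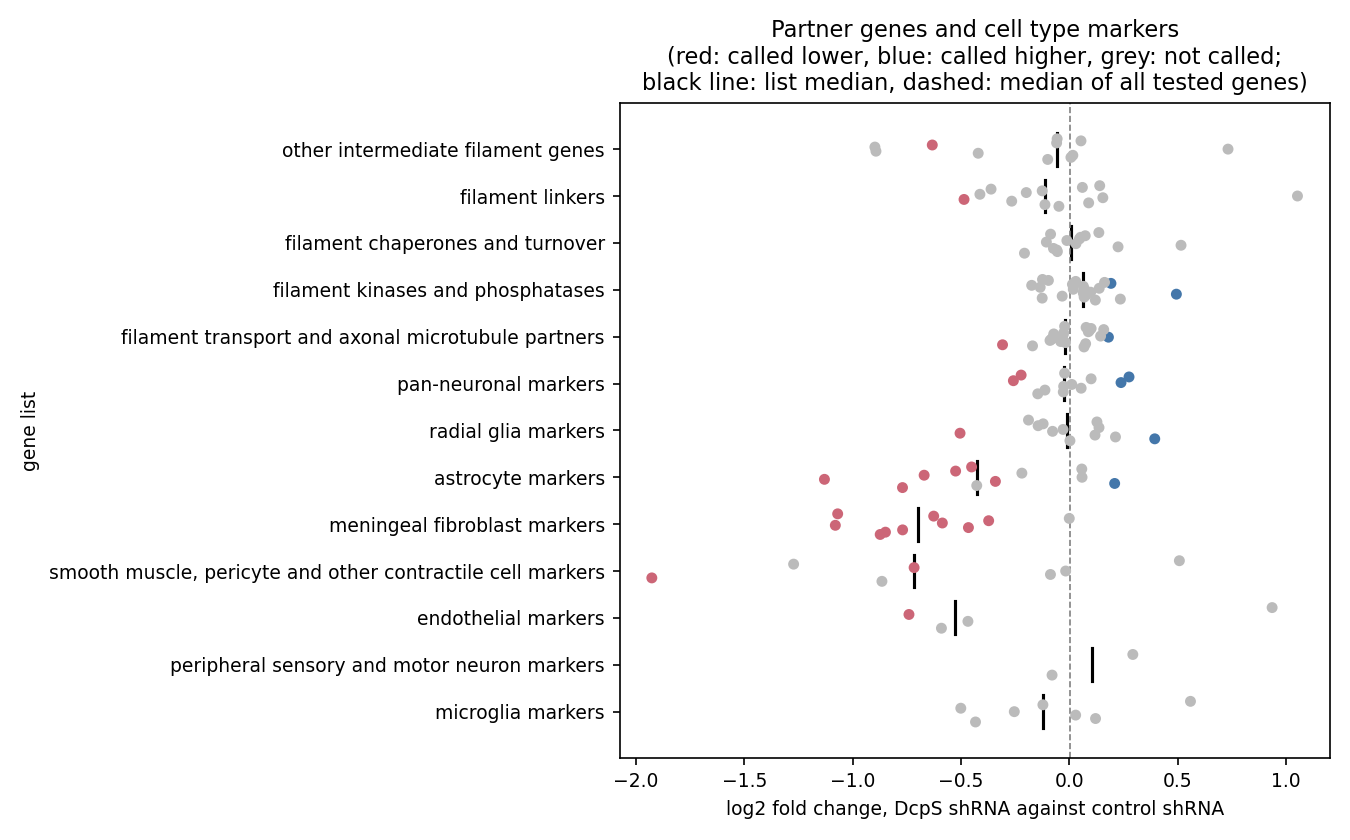
Log2 fold change of DcpS shRNA against control shRNA for each tested gene of 13 lists of filament partners and cell type markers, with genes called lower in red, called higher in blue and others in grey. Black lines are list medians and the dashed line is the median of all tested genes. The pan-neuronal and radial glia medians are −0.02 and −0.01, and the astrocyte and fibroblast medians −0.43 and −0.70.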

How the data were processed

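The authors deposited 1 table of gene values by symbol, with 1 column per library. Its values are a signal: the deposited numbers are read counts divided by a factor per library, since every value was a whole multiple of its column's smallest positive value (100% whole, tolerance 0.001). The factors equalled median-of-ratios size factors. Per the submitters' processing notes, HISAT2 2.2.0, SAMtools 1.3.1, Picard, featureCounts and DESeq2 were used with GRCm38. The annotation, strand use and treatment of multi-mapped reads are not stated there.

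Values were tested with limma 3.58.1 on log2(value + 1), with an intensity trend, robust empirical Bayes and group as the only term. Adjustment was by Benjamini-Hochberg over 18110 genes passing edgeR 4.0.16's filterByExpr (minimum count 10) on recovered reads. Folds on this scale understate changes of low genes. The code was tested on simulated data. Exon lengths and 3′ UTRs came from GENCODE M21. The samples were grouped by title. Alternatives were edgeR, DESeq2 1.42.0, other scalings and pseudocounts (0.5 and 5), no filter, each library left out and the replicate block.

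All 10 members are named, with up to 3 genes called in each direction per list. Members and lists were chosen with earlier results of these data known.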

Additional observations from a re-analysis of the deposited data

How the results depend on the processing

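The number of genes called was 1048 (387 higher, 661 lower) and stayed within 1.5 times of this with TMM or library-total scaling, pseudocounts of 0.5 and 5, no filter, edgeR, and edgeR with the replicate block. DESeq2 called 448 (137 higher, 311 lower). Leaving out each library in turn gave 594 to 1439 genes, 225 to 490 higher and 369 to 949 lower. Among the intermediate filament genes, 3 were called in each of these settings with all 4 libraries, and 1 to 2 with a library left out, the 1 being Ina without control 2.

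With the replicate block limma called 1626 genes (646 higher), and the block changed no call among the filament genes. The labels do not say that equal numbers mark a shared preparation. Same-numbered libraries deviated from their group means with a correlation of 0.04 across genes. With 2 libraries per group, both pairs give this same value by construction, so it is a single comparison. A shared preparation was neither shown nor excluded, and the number was not used as a block.

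Signs turned for 3 genes that were not called: with each library left out in turn, log2 fold changes ran from −0.13 to 0.13 for Nefl (higher without control 2, 0.08, or DcpS shRNA 1), −0.025 to 0.068 for Vim (lower without control 2) and −0.20 to 0.0087 for Synm (higher without control 1). The share of Ina kept its direction, at −11.2 percentage points with the longest transcript as length and −9.60 to −9.36 with a library left out. With a library left out of a group, the remaining one is assumed to vary like the others. Depth limits Nefh, Prph and Des, which had at most 57 reads in any library.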
